A study of Homo sapiens with 4 samples.

Results

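The MYC, MAX and MXD network was followed in MiaPaCa2 cells, an established human pancreatic carcinoma line, through 10 genes: MYC, MYCN, MYCL, MAX, MXD1, MXD3, MXD4, MXI1, MNT and MLX. Members were found by gene symbol on probe sets that carry 1 symbol only, with the brightest probe set standing for a gene. All 10 were measured, each by 1 such probe set, among 18417 genes in all. The vehicle group was 2 arrays of cells given vehicle for 24 h, and the treated group was 2 arrays of cells given LY101-4B at 50 µM for 24 h. The treatment protocol of the same samples names LY101-4D at 25 µM instead, and the titles and agent labels were followed here. The series calls LY101-4B an inhibitor of E2F, the transcription factor family that drives entry into S phase. The 4 samples share 1 cell line and 1 time point, and the design calls the 2 of each group biological replicates without saying how the cultures were kept apart. Per the labels, RNA was read on Human Gene 1.0 ST arrays, which report each transcript as a probe set value, given here in log2 units so that a step of 1 is a doubling.

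MYC proteins bind the DNA hexamer called the E-box only as dimers with MAX, and these dimers raise transcription of genes for growth, nucleotide supply and ribosome assembly. MXD proteins and MNT compete for the same partner and the same hexamer, and they bring SIN3 and histone deacetylases that lower transcription. MLX is a relative of MAX that pairs with the glucose-sensing Mondo proteins and with some MXD proteins. In dividing cells MYC dominates, whereas MXD1 is known to accumulate as cells leave the cycle and differentiate.

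E-box letters were present in the promoters of some members, and the stretches are shown because the members' own promoters can carry the hexamer that the network reads. Promoter windows of 300 bases (250 before and 50 after the start, RefSeq, GRCh38.p14) were available for 9 of the 10 members as 12 windows. The hexamer CACGTG, which reads the same on both strands, was in 3 of the 12 windows (25%), against 7.26% of 35116 windows of all genes. The 3 windows belong to MXD4, MNT and MLX, and their hexamers stand in capitals below, on the strand of the gene.
MXD4 (chr4:2262325-2262359, minus strand): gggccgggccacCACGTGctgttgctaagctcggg
MNT (chr17:2401231-2401270, minus strand): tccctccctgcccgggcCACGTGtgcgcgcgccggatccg
MLX (chr17:42567033-42567072, plus strand): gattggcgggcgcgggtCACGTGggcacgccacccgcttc

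The MXD1 window is printed whole because MXD1 changed most among the members. It spans chr2:69914859-69915158 on the plus strand, has a GC content of 65% and holds neither CACGTG nor the E2F letters TTTCCCGC or TTTGGCGC on either strand, so no capitals appear.
MXD1: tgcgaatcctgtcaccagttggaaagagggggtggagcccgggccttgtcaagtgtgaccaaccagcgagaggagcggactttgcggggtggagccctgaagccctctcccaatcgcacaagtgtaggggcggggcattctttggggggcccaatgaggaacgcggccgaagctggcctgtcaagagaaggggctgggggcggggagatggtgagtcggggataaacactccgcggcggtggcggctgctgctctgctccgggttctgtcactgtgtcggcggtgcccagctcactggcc

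The E2F letters were in 1 of the 12 windows (8.33%), that of MYCN, against 2.27% of all windows. These matches describe letters and are not shown to be bound here.

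The arrays were close to one another within groups. Across the 21214 tested probe sets the vehicle arrays correlated at r = 0.997, the LY101-4B arrays at r = 0.994, and arrays of different groups at 0.978 to 0.981. Array medians lay between 5.88 and 5.97. Markers of the line were bright on the vehicle arrays, with means of 12.6 for VIM, 12.8 for KRT8 and 12.9 for KRT18. Of the 6 line markers 2 fell with LY101-4B, KRT8 by 0.84 log2 units (limma adjusted p 0.00371) and KRT18 by 0.57 (0.0106). The KRT18 call ended on dropping vehicle replicate 1 (0.0983) or 2 (0.0527). CDKN2A, which is deleted in this line, stood at 5.78, and the epithelial markers EPCAM and CDH1 at 3.94 and 4.49. The 6 measured leukocyte, endothelial and fibroblast markers had vehicle means from 3.16 (LUM) to 5.06 (CD3E), all below the array medians. Detection calls were not used here, so such values cannot be called absent.

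Of the 10 members, 3 rose and 0 fell with LY101-4B at a limma adjusted p under 0.05, and 7 did not pass. MXD1, MXD4 and MAX were the 3 that rose. At an unadjusted limma p under 0.05, 4 were higher and 1 was lower, and no other tool was run. Among all tested probe sets 9.1% were called higher and 10.5% lower. The groups did not overlap for 9 members, 6 of them higher and 3 lower, against 28.5% and 29.5% of all tested probe sets. The median difference was 0.24 log2 units over the 10 members and 0.01 over all tested probe sets. Leaving out either vehicle array cut the number of members called higher from 3 to 1, and the one that passed was MXD1. RMA scales arrays to a common distribution, so every change is relative to the bulk of probe sets. In bulk RNA, a change inside each cell and a change in the share of cells in a given state cannot be told apart.

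**Figure D1:**
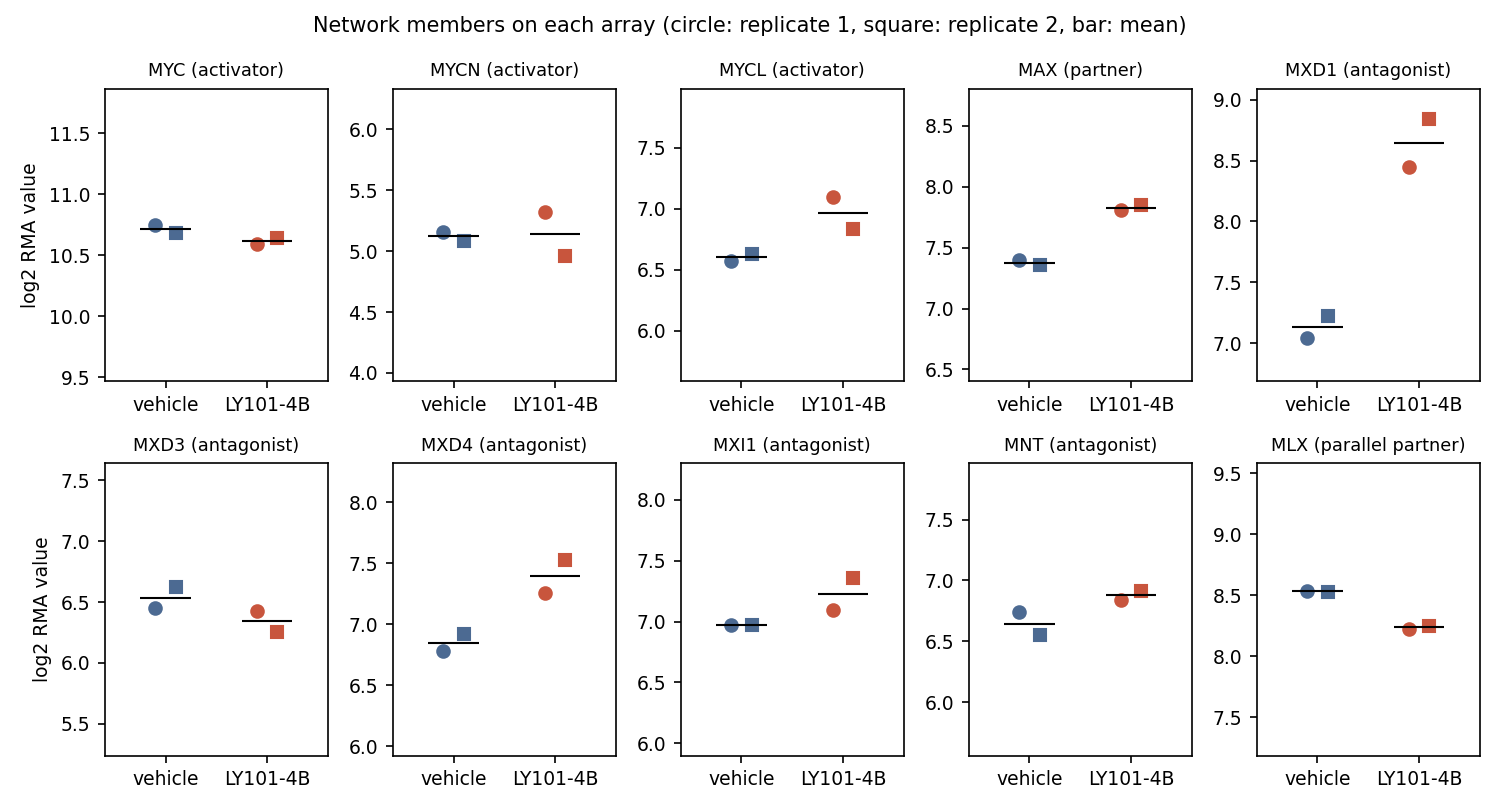
Log2 RMA value (y axis) of each of the 10 members on the 2 vehicle arrays (blue) and the 2 LY101-4B arrays (red), with circles for replicate 1, squares for replicate 2 and a bar at each group's mean. Each panel spans the same range in log2 units around its own centre. MXD1 shows the widest step, from 7.13 to 8.64, while MYC lies between 10.59 and 10.75 on all 4 arrays.

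Among the activators, MYC, the broadly expressed member of the family, gave values of 10.75 and 10.68 on the vehicle arrays and 10.59 and 10.64 on the LY101-4B arrays. Both treated arrays were below both vehicle arrays, but by little. The difference was -0.10 ± 0.09 log2 units (SE, limma adjusted p 0.498), with a 95% interval from -0.32 to 0.11. MYC therefore did not pass, and with arrays rescaled by cyclic loess its difference was 0.00 with the opposite sign. A missed threshold does not show that MYC was equal in the groups.

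MYCN, the family member best known from neuroblastoma, stood at 5.16 and 5.08 with vehicle and at 5.32 and 4.96 with LY101-4B. Its groups overlapped, all 4 values were below the array medians, and the difference was 0.02 ± 0.14 log2 units (SE, limma adjusted p 0.95). The sign turned with cyclic loess and with median centring, and without vehicle replicate 2 (-0.02) or LY101-4B replicate 1 (-0.16). No direction is given for MYCN.

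MYCL, first described in lung cancer, gave 6.58 and 6.63 with vehicle and 7.10 and 6.83 with LY101-4B. Both treated arrays were higher than both vehicle arrays, and the treated arrays differed from each other by more than the vehicle arrays did. The difference of 0.36 ± 0.12 log2 units (SE) had a 95% interval from 0.08 to 0.65 but did not pass over all probe sets (limma adjusted p 0.0853). It passed without LY101-4B replicate 2 (adjusted p 0.0316) and when only the brighter 50% of probe sets were tested (0.032).

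MAX, the partner that activators and antagonists share, stood at 7.40 and 7.35 with vehicle and at 7.81 and 7.85 with LY101-4B. The groups lay well apart and the replicates nearly coincided. MAX rose by 0.45 ± 0.09 log2 units, or 1.37-fold (SE, limma adjusted p 0.0179). The call was lost without vehicle replicate 1 (adjusted p 0.117), without vehicle replicate 2 (0.148) and when all 33297 rows were tested (0.0569).

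MXD1, the first antagonist described and the founder of its family, gave 7.04 and 7.22 with vehicle and 8.45 and 8.84 with LY101-4B. The lowest treated value exceeded the highest vehicle value by far more than either replicate gap. MXD1 rose by 1.51 ± 0.15 log2 units, or 2.85-fold (SE, limma adjusted p 0.00254), with a 95% interval from 1.14 to 1.89. It ranked 101 of 18417 genes by the size of its rise. The adjusted p stayed between 0.000184 and 0.0199 over 12 alternative settings, and the difference ranged from 1.32 to 1.71 when 1 array was left out. Among all genes, the 3 with array values most like those of MXD1 were DNAJC3, YPEL2 and ZNF841. Their Euclidean distances to it were 0.098, 0.123 and 0.147 log2 units over the 4 arrays, each gene centred on its own mean. DNAJC3 encodes a co-chaperone of the endoplasmic reticulum. With only 4 arrays such a likeness mostly repeats the size of the treatment difference, which was 1.44 for DNAJC3, 1.50 for YPEL2 and 1.64 for ZNF841.

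MXD4, another antagonist of the family, stood at 6.78 and 6.92 with vehicle and at 7.26 and 7.53 with LY101-4B. Its groups did not overlap. MXD4 rose by 0.54 ± 0.12 log2 units, or 1.46-fold (SE, limma adjusted p 0.0301). This was the least firm of the 3 calls. Dropping vehicle replicate 1 ended it (adjusted p 0.168), as did dropping vehicle replicate 2 (0.0893), dropping LY101-4B replicate 2 (0.0633) or testing all rows (0.0894).

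The other antagonists did not pass. MXI1, also known as MXD2, gave 6.97 on both vehicle arrays and 7.10 and 7.36 with LY101-4B, a difference of 0.26 ± 0.11 log2 units (SE, limma adjusted p 0.189). MNT, the antagonist that is present in proliferating as well as resting cells, gave 6.74 and 6.55 with vehicle and 6.84 and 6.91 with LY101-4B, a difference of 0.23 ± 0.10 (SE, limma adjusted p 0.189). For both genes all treated values were above all vehicle values, and the 95% intervals reached from just under 0 (-0.02 for each) to 0.54 and 0.49. MXD3, the member linked with S phase, ran the other way, with 6.45 and 6.63 against 6.43 and 6.26. Its groups were separated by a narrow margin, and the difference of -0.20 ± 0.11 log2 units (SE) did not pass (limma adjusted p 0.296).

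MLX gave 8.53 on both vehicle arrays and 8.22 and 8.25 with LY101-4B. The replicates were tight and the groups did not overlap, yet the difference of -0.30 ± 0.08 log2 units (SE) missed the threshold (limma adjusted p 0.0617). It passed with median centring (0.0374), among the brighter 50% of probe sets (0.017) and with an intensity trend in the prior (0.0284). The 95% interval ran from -0.50 to -0.09.

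**Figure D2:**
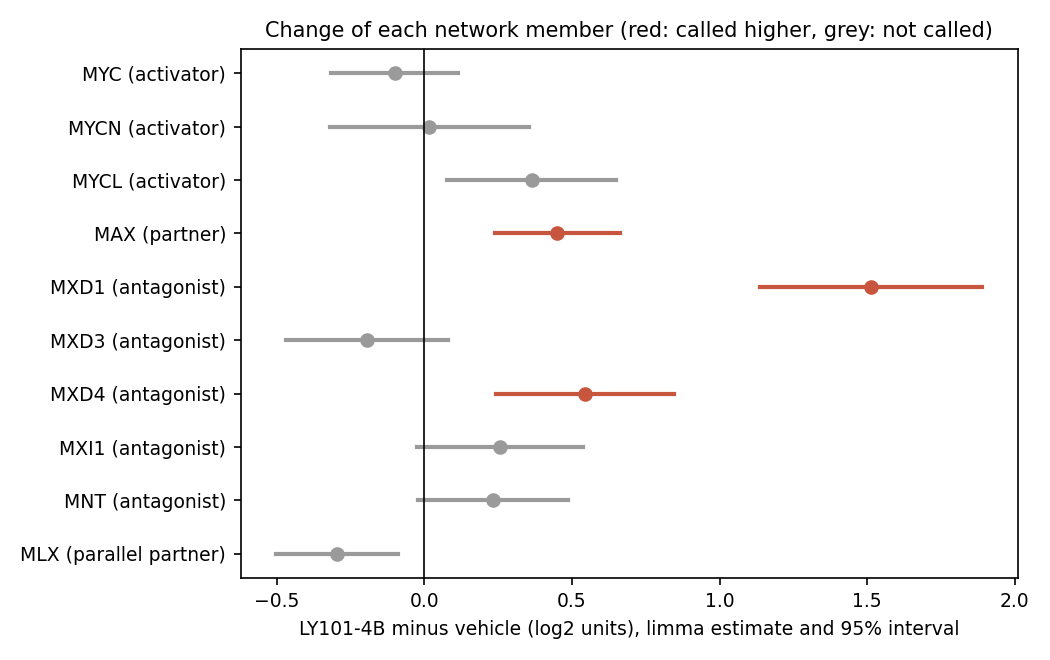
Difference of each member between LY101-4B and vehicle (x axis, log2 units; points are limma estimates, lines their 95% intervals, n = 2 arrays a group). The intervals of MXD1, MXD4 and MAX (red, called higher) lie above 0, and so does that of MYCL, which was not called after adjustment over all probe sets.

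Set against each other by role, the mean of the antagonists was higher with LY101-4B and the means of the activators overlapped. The mean of the 5 antagonists was 6.80 and 6.86 on the vehicle arrays and 7.21 and 7.38 on the LY101-4B arrays, a difference of 0.47 log2 units. The mean of the 3 activators was 7.49 and 7.47 with vehicle and 7.67 and 7.48 with LY101-4B, a difference of 0.09. Activators minus antagonists thus gave 0.70 and 0.61 with vehicle and 0.45 and 0.10 with LY101-4B. That is a change of -0.38, with group SDs of 0.06 and 0.25 (n = 2 each), and the groups did not overlap. It was -0.20 without LY101-4B replicate 2 and -0.55 without LY101-4B replicate 1. The antagonist mean leaned on MXD1 (1.51), the only antagonist above 1 log2 unit. The others differed by 0.54 (MXD4), 0.26 (MXI1), 0.23 (MNT) and -0.20 (MXD3). The activator mean gave equal weight to MYC (-0.10), MYCL (0.36) and MYCN (0.02), and the MYCN values were below the array medians. The gap was not computed without MXD1, so its separation of the groups cannot be read as shared by the antagonists. No test is given for these means, since the genes were a chosen list.

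MYC and MXD1, the pair with the classical switch between them, drew closer on the log2 scale. Most of the step came from MXD1 (1.51), since MYC differed by -0.10 and did not pass, so the gap largely repeats the MXD1 call. MYC minus MXD1 was 3.71 and 3.46 on the vehicle arrays and 2.14 and 1.80 on the LY101-4B arrays, a change of -1.61 log2 units. Probe sets differ in brightness for the same RNA amount, so only the change in this gap can be read, not its level. MAX minus MLX moved from -1.13 and -1.17 to -0.41 and -0.40, a change of 0.75.

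**Figure D3:**
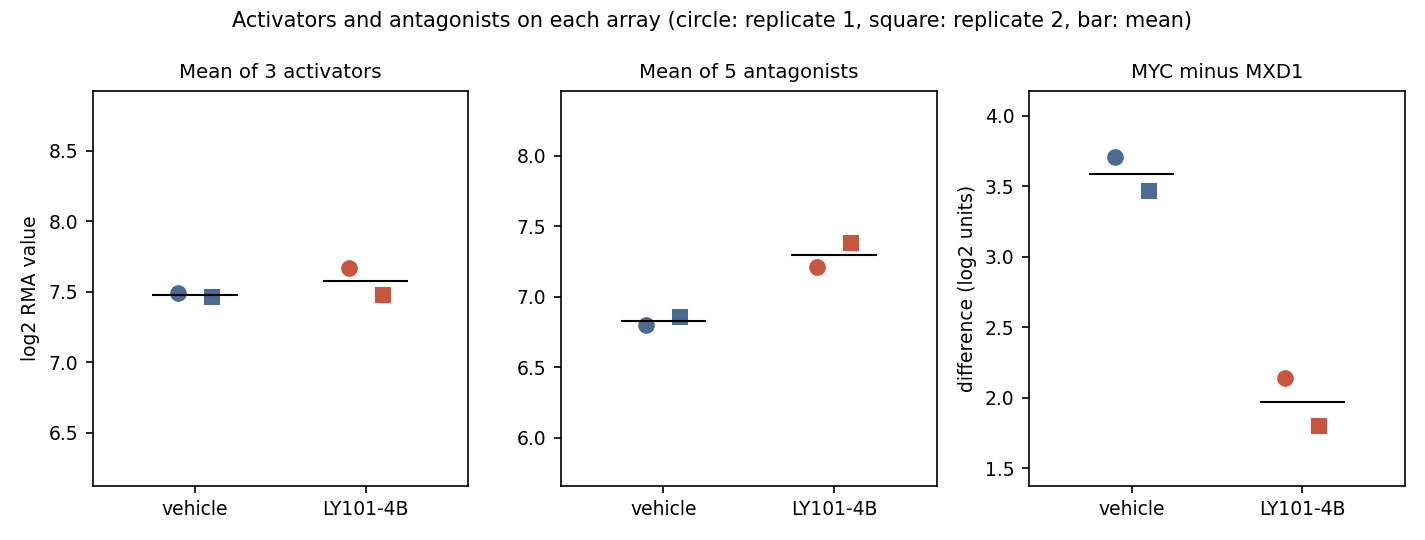
Mean log2 RMA value of the 3 activators (left), of the 5 antagonists (middle) and the MYC minus MXD1 difference (right) on each array, blue for vehicle and red for LY101-4B, with a bar at each group mean. The antagonist mean is higher on both treated arrays (7.21 and 7.38) than on both vehicle arrays (6.80 and 6.86), and the activator means of the groups overlap.

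Of 10 other measured factors of the network or its E-box, 1 rose and 0 fell by limma, and 2 were lower at an unadjusted p under 0.05. The 10% called higher stands beside 9.1% of all tested probe sets. The riser was BHLHE40, a repressor that binds E-boxes and responds to stress and the circadian clock, which rose 2.38-fold (1.25 ± 0.14 log2 units, SE; limma adjusted p 0.00325). MLXIP, which encodes the MondoA partner of MLX, differed by -0.35 (adjusted p 0.0533), and the E-box factor gene USF1 by -0.36 (0.0578). Both passed with median centring (0.034 and 0.0362), among the brighter 50% of probe sets (0.0159 and 0.0183) and with an intensity trend (0.0422 and 0.0201). MLXIP also passed with cyclic loess (0.0498) and without LY101-4B replicate 1 (0.0494), and USF1 without LY101-4B replicate 2 (0.0441). MGA, a large MAX-binding factor, differed by -0.13 (adjusted p 0.594). MGA, MLXIP and USF1 were picked for mention with their values in view. MYCBP was measured only on a probe set shared with another symbol and is not counted.

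Genes that MYC is known to induce were mostly lower, although MYC itself did not pass. Of 48 measured targets 34 fell, 6 rose and 8 did not pass, with a median difference of -0.45 log2 units. The 70.8% called lower stands beside 10.5% of all tested probe sets, and the 12.5% called higher beside 9.1%. The same 10.5% and 9.1% stand beside the counts of the induced lists below. The direction of the median held with cyclic loess (-0.37) and median centring (-0.50). The number called lower dropped to 14 without vehicle replicate 1 and to 12 without vehicle replicate 2, while the medians then were -0.46 in each case. Many of these genes also answer to other regulators, and the targets were listed with earlier results of these data known.

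Nucleolar and ribosome assembly targets fell in 15 of 17 cases and rose in 0 (also 0 at an unadjusted limma p under 0.05) and a median of -0.63. UTP20, a processing factor of the small ribosomal subunit, fell 2.31-fold, a difference of -1.21 ± 0.12 (SE, limma adjusted p 0.00267). The gene MRTO4, a ribosome stalk assembly factor, fell 2.15-fold, BOP1, which matures the large subunit, 1.96-fold and the nucleolar phosphoprotein gene NOLC1 1.80-fold. RRP12 (0.01) and NPM1 (-0.20) did not pass and are given because they stood apart in values already seen. The other bright NPM1 probe sets differed by -0.24 and -0.23 and did not pass (limma adjusted p 0.14 and 0.153). A far dimmer one (5.33 with vehicle, below the array medians) was called lower at -0.44 (limma adjusted p 0.0266). All NPM1 probe sets thus had the same sign and differed only in the call. Without vehicle replicate 1 or 2 the number lower was 8 and 7.

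Nucleotide and polyamine targets fell in 5 of 6 cases, with a median of -0.37. The purine enzyme gene PAICS fell 1.65-fold, a difference of -0.72 ± 0.08 (SE, limma adjusted p 0.00395), and CAD, which starts pyrimidine synthesis, 1.57-fold. ODC1, the rate-limiting enzyme of polyamine synthesis and a classical E-box target, fell 1.30-fold, and SRM, spermidine synthase, 1.28-fold. The ODC1 and SRM calls were lost on leaving out any 1 array (adjusted p 0.0545 to 0.257) with cyclic loess (0.0689 and 0.0766) and with all rows tested (0.0796 and 0.0918), and the CAD call without vehicle replicate 2 (0.0544). The list had 2 lower with cyclic loess or all rows tested, 2 without vehicle replicate 1 or LY101-4B replicate 1, 1 without vehicle replicate 2 and 3 without LY101-4B replicate 2.

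Translation factors fell in 3 of 4 cases by small amounts: EIF3B 1.36-fold, EIF4G1 1.36-fold and EIF2S1 1.32-fold. None of the 3 passed without vehicle replicate 1 or without vehicle replicate 2 (adjusted p 0.123 to 0.197), or with all rows tested (0.0587 to 0.0907). EIF2S1 and EIF4G1 also missed it without LY101-4B replicate 1 (0.0826 and 0.0514), leaving 1 lower, and EIF2S1 with cyclic loess (0.0605). EIF4E, the cap-binding factor, differed by -0.02 at a low signal of 5.21 and was named after its value was seen.

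Mitochondrial and chaperone targets fell in 5 of 7 cases (median -0.54), led by TFAM, which packages mitochondrial DNA, at 1.67-fold (-0.74 ± 0.10 log2 units, SE; limma adjusted p 0.00628). HSPE1 fell 1.51-fold, PHB1 1.47-fold and PRDX3 1.45-fold. Dropping vehicle replicate 1 or 2 ended the PHB1 and PRDX3 calls (adjusted p 0.0588 to 0.118), and dropping the second ended that of HSPE1 (0.082). The PRDX3 call also ended with all rows tested (0.0541). The list had 2 lower without vehicle replicate 1, 1 without vehicle replicate 2 and 3 with all rows tested.

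Cell-cycle targets fell in 5 of 7 cases and rose in 1. CDC25A, the phosphatase that activates CDK2, fell 2.50-fold, a difference of -1.32 ± 0.10 (SE, limma adjusted p 0.00124), and the cyclin B1 gene CCNB1 1.56-fold. E2F2 fell from 6.57 to 5.84 (limma adjusted p 0.0198). Its treated mean was below the array medians and may be background, so no fold is given. CCND2, the cyclin D2 gene and a textbook MYC and MXD1 target, rose from 5.32 to 7.07 (adjusted p 0.00077). Its vehicle values were below the array medians and may be background, so no fold is given. The E2F2 call ended on dropping vehicle replicate 1 (0.0753) or 2 (0.0873) and with all rows tested (0.0698), and that of CCNB1 on dropping replicate 1 (0.0527). The number lower was 1 without vehicle replicate 1, 2 without vehicle replicate 2 3 without LY101-4B replicate 1 and 2 with all rows tested.

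Metabolic and transport targets rose in 5 of 7 cases and fell in 1, with a median of 0.91. The branched-chain aminotransferase gene BCAT1 rose from 5.48, which is below the array medians and may be background, to 6.87, and no fold is given. SLC7A5 and SLC3A2, the 2 chains of the large neutral amino acid transporter, rose 2.41-fold and 2.31-fold, and the glutamine transporter gene SLC1A5 1.87-fold. Their limma adjusted p ranged from 0.000965 to 0.00202. A dimmer SLC1A5 probe set had group means of 6.73 and 6.74. SHMT2 (0.85) also rose and LDHA (-0.68) fell, both picked with their values in view. Of these genes, the amino acid transporters and SHMT2 are also known targets of the stress factor ATF4. The counts of 5 higher and 1 lower held on leaving out each array.

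The E-box hexamer stood in the promoters of many induced targets, both lower and higher. MYC binds this hexamer and the list held known MYC targets, so a high share was partly set by that choice. Of 56 listed targets, measured or not, 48 had promoter windows, 72 in all. These 48 are not the same set as the 48 measured targets. Of the 72 windows 26 (36.1%) held CACGTG, against 7.26% of windows of all genes and 8.32% of the 20109 windows of measured genes. The share was 38.1% for nucleolar targets, which were mostly lower, and 26.7% for metabolic and transport targets, which were mostly higher. The stretches below come from named targets in both directions whose windows hold the hexamer, in capitals. They were chosen for holding it, so they cannot show how common it is in either direction.
UTP20, which fell (chr12:101280078-101280117, plus strand): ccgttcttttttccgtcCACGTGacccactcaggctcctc
MRTO4, which fell (chr1:19251802-19251841, plus strand): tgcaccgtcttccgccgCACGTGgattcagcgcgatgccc
PAICS, which fell (chr4:56435775-56435801, plus strand): gaaagctgtatttgctgCACGTGgaaa
ODC1, which fell (chr2:10448019-10448058, minus strand): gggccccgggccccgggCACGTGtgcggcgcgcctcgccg
SLC7A5, which rose (chr16:87869615-87869654, minus strand): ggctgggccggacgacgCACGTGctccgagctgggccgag
SLC1A5, which rose (chr19:46787321-46787360, minus strand): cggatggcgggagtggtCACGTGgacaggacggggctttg
BCAT1, which rose (chr12:24949065-24949104, minus strand): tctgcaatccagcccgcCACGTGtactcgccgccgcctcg

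The ODC1 window held a second hexamer outside the stretch shown (2 in the window), whereas the other 6 held 1 each. The PAICS stretch is shorter because the window ends there. The 13 windows of genes described as repressed by MYC covered 8 of the 13 listed, and 0 held the hexamer. Beside 8.32% of the windows of measured genes, so few windows cannot show a lack of it.

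Genes described as repressed by MYC were mostly higher. Of 12 measured, 7 rose, 1 fell and 4 did not pass, with a median of 0.52 (0.62 with cyclic loess, 0.47 with median centring). The 58.3% called higher stands beside 9.1% of all tested probe sets, and the 8.33% called lower beside 10.5%. DDIT3, which encodes the stress factor CHOP, rose 11.8-fold, from 7.32 to 10.88. NDRG1, a differentiation-related gene, rose 3.56-fold, and the growth arrest gene GADD45A 3.26-fold. CDKN1A, which encodes the CDK inhibitor p21, rose 1.63-fold (limma adjusted p 0.0147). Dropping vehicle replicate 1 (0.0551) or 2 (0.0817), or testing all rows (0.0563), ended the CDKN1A call. NDRG2 (-0.51), picked with its value in view, fell, and its call ended on dropping vehicle replicate 1 (0.114) or 2 (0.102) and with all rows tested (0.0563). The number called higher was 4 without vehicle replicate 1 and 3 without vehicle replicate 2, and the number lower was then 0. DDIT3, NDRG1 and GADD45A are known stress-response genes as well, and the part of MYC in their rise was not tested.

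**Figure D4:**
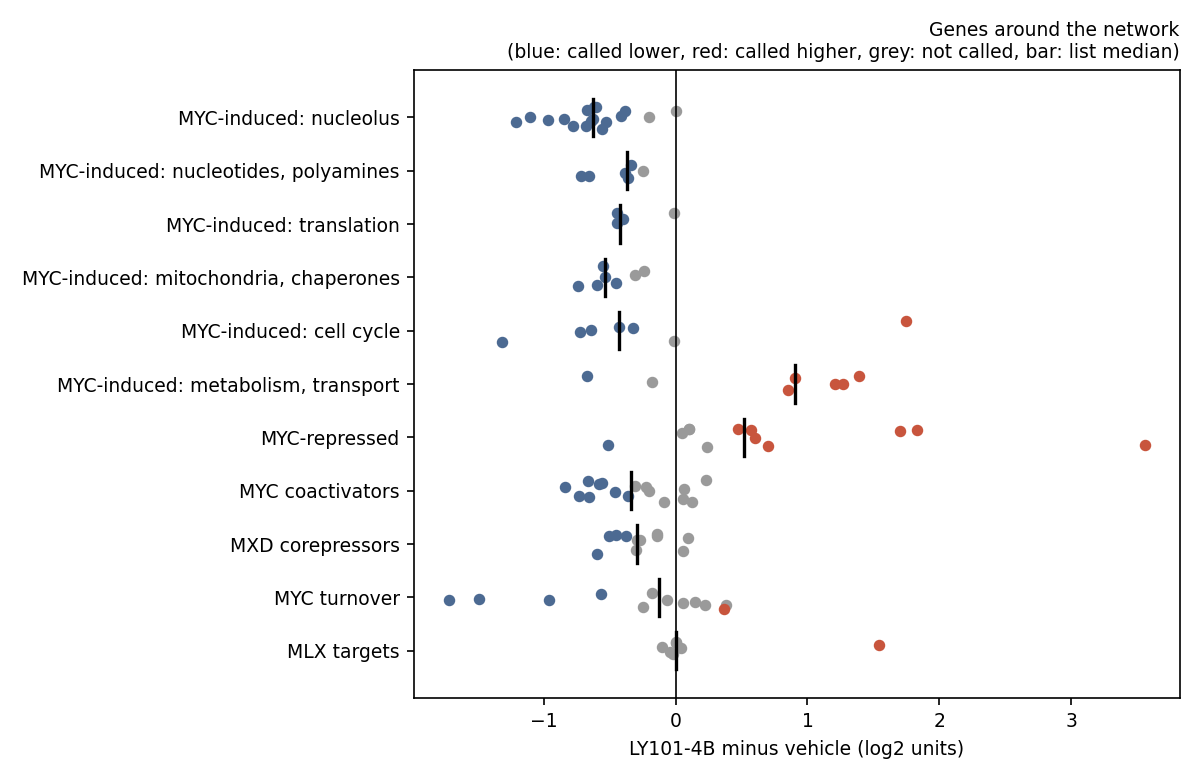
Difference between LY101-4B and vehicle (x axis, log2 units) for each measured gene of the lists around the network, 1 point a gene, blue when called lower, red when called higher and grey when not called, with a bar at the list median. Nucleolar targets lie mostly left of 0 (median -0.63) and metabolic and transport targets mostly right of it (median 0.91).

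Cofactors of both sides fell or did not pass. The 16 measured coactivators that MYC recruits had a median of -0.34. Of these, 8 fell (50%, beside 10.5% of all tested probe sets) and 0 rose (beside 9.1%). They were led by the acetyltransferase gene KAT2A (1.79-fold, -0.84 ± 0.11 log2 units, SE; limma adjusted p 0.00596), the ATPase gene RUVBL2 (1.67-fold), HCFC1 (1.59-fold) and ACTL6A (1.58-fold). HCFC1 was not called once vehicle replicate 1 (0.066) or 2 (0.0554) was dropped, nor ACTL6A without the latter (0.053). The coactivators called lower then numbered 3 without replicate 1 and 2 without replicate 2. Of 11 measured corepressors that MXD proteins and MNT bring to DNA, 4 fell (36.4%) and 0 rose (median -0.29). All cofactors were among the brighter 50% of probe sets. Tested there alone, 7 of the 11 corepressors and 9 of the 16 coactivators were lower, beside 2816 of 10607 probe sets. RBBP7 fell 1.51-fold, RBBP4 1.42-fold, HDAC2 1.37-fold and HDAC1 1.30-fold, and all 4 calls ended on dropping vehicle replicate 1 or on dropping vehicle replicate 2 (adjusted p 0.0619 to 0.215). HDAC1 also missed it without either LY101-4B array (0.0611 and 0.0557) and with cyclic loess (0.0743), and HDAC2 without LY101-4B replicate 1 (0.0653), where 2 corepressors were lower. With all rows tested HDAC1 (0.0792) and HDAC2 (0.0683) were not called, which left 2 corepressors lower. The scaffold genes SIN3A (-0.27, limma adjusted p 0.083) and SIN3B (-0.14, 0.329) did not pass and were picked with their values in view. No coactivator or corepressor was higher at an unadjusted limma p under 0.05.

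Among 12 measured regulators of MYC protein stability, 4 fell and 1 rose. The 8.33% called higher stands beside 9.1% of all tested probe sets, and the 33.3% called lower beside 10.5%. SKP2, a ubiquitin ligase subunit that marks MYC for turnover, fell 3.29-fold, a difference of -1.72 ± 0.10 (SE, limma adjusted p 0.000703). CIP2A, which shields MYC from a phosphatase, fell 2.81-fold, the kinase gene PLK1 1.94-fold and AURKA, whose kinase stabilises MYC proteins, 1.48-fold. AURKA was not called once vehicle replicate 1 (0.0907) or 2 (0.0585) was dropped. These 4 genes are also expressed with the cell cycle. GSK3B, the kinase that primes MYC for degradation, rose by 0.37 (adjusted p 0.0363), but its call ended on dropping any 1 of the 4 arrays (0.0529 to 0.229), with median centring (0.0558) and with all rows tested (0.092). FBXW7, the ligase that reads that mark, differed by 0.38 (0.0519), and passed without LY101-4B replicate 1 (0.0434). GSK3B and FBXW7 were picked with their values in view.

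Targets of the MLX dimers did not move as a group. Of 7 measured, 1 rose and 0 fell (0 also at an unadjusted limma p under 0.05), with a median of 0.00 that was 0.09 with cyclic loess. The 14.3% called higher stands beside 9.1% of all tested probe sets, and the 0% called lower beside 10.5%. TXNIP, the classical glucose-responsive target of MondoA and MLX, rose 2.92-fold, from 11.08 to 12.62 (1.55 ± 0.09 log2 units, SE; limma adjusted p 0.000729). ARRDC4, the other classical target, stood at 4.11 and 4.01, with a difference of -0.10 (adjusted p 0.733). The ARRDC4 signal was below the array medians. It was named after its value was seen.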

How the data were processed

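Expression was measured on 4 arrays, 2 per group. The authors deposited log2 expression values per probe set, made with RMA per the submitters' processing notes. That method corrects background, quantile-normalises arrays and summarises probes. Its version and filters are not given in the sources used. RMA compresses differences at low signal. Of 33297 rows, 21214 with a gene symbol in the platform annotation were tested, and the 19460 with 1 symbol were named. All columns were mapped to samples by accession (0 unmapped).

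A linear model with treatment as its only term was fitted with limma 3.58.1 in R 4.3.3 (lmFit, eBayes without trend), leaving 2 degrees of freedom for the residual, with 3.75 more from the prior. P-values are 2-sided and adjusted over the 21214 probe sets by Benjamini-Hochberg, threshold 0.05, and the fit was tested on simulated data. The number of arrays limits the precision. The p-values weigh each difference against the spread between arrays of the same group, moderated by the prior from all tested probe sets. Listed genes on probe sets with several symbols, or on none used here, were left out, and some items are not reported here.

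Every member was named. From each other list up to 4 called genes with the largest change were named, or the 2 with the smallest p. Other genes of the lists, and markers of the line or of other cells, were picked with their values in view. No protein sequences were used here. Members and lists were chosen with earlier results of these data known. The alternatives were cyclic loess, median centring, the brighter 50% of probe sets, all rows, an intensity trend, a robust prior, the mean of a gene's probe sets, a replicate block and leaving out each array.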

Additional observations from a re-analysis of the deposited data

How the results depend on the processing

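With 2 arrays a group, calls were lost most often on leaving out a vehicle array. The spread then came from the LY101-4B arrays alone, whose replicates differed more (SD of the differences 0.22, against 0.16 for vehicle). For MAX the difference was then 0.47 or 0.43 with an SE of 0.15, against 0.45 and 0.09 with all arrays. Such a lost call thus need not mean that the difference itself changed. A fit without 1 array assumes that the lone array varies like the other group. Over all probe sets 1930 were higher and 2236 lower, against 755 and 855 without vehicle replicate 1, 874 and 811 without vehicle replicate 2, and 1162 and 1271 with all rows tested. Leaving out each array gave 1 to 3 members called higher, 12 to 30 induced targets called lower, 3 to 7 repressed targets called higher, 0 to 1 repressed targets called lower and 2 to 12 cofactors called. Testing all rows gave 1 member higher, 21 induced targets lower and 0 repressed targets lower. MLX was the 1 member called lower under median centring, under an intensity trend and among the brighter 50% of probe sets. With cyclic loess the difference of MYC was 0.0047 and that of MYCN -0.0068. MYCN was -0.034 with median centring and -0.16 to 0.20 on leaving out each array. The induced targets called higher (6, or 4 among the brighter 50% of probe sets, where fewer genes were tested) and the change of activators minus antagonists (-0.55 to -0.20) kept their direction in each setting run. No setting left MXD1 out of the antagonist mean, so the held direction cannot be read as shared by the antagonists. MXD1 passed in all 12.

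The labels number the replicates 1 and 2 in both groups but do not say that a number marks a shared batch. Differences between replicates 1 and 2 in the 2 groups correlated at r = 0.116 across probe sets, over 2 pairs only. With a replicate block, 3 members were higher and 0 lower, 32 induced targets were lower, and 11 cofactors were called. Array number and unknown detection limit what can be said of dim probe sets such as MYCN.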

Other observations

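Across all measured genes with a RefSeq promoter window, those holding CACGTG in at least 1 window were called more often in both directions than those without it. Of 1557 such genes 15.2% were called lower and 11.4% higher, against 11.3% and 9.02% of 12682 genes without the hexamer. The medians were close, at -0.01 and 0.00 log2 units. Genes holding the E2F letters leaned one way. Of 539 such genes 24.1% were called lower and 7.42% higher, against 11.2% and 9.35% of 13700 genes without them, and their median difference was -0.08 log2 units. These shares were computed after the data were seen and were given no test, since genes on the same arrays vary together.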
